A study of Mus musculus and Homo sapiens with 22 samples.

Results

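The 10 genes described here encode SR splicing factors and their close relatives: Srsf1, Srsf2, Srsf3, Srsf5, Srsf6, Srsf7, Srsf10, Srsf11, Tra2a and Tra2b. They were chosen by name from the 56196 genes of the count table, with the upper-case symbols taken for human cells. The 22 samples of the series comprised miCLIP2 libraries, which map N6-methyladenosine (m6A) on poly(A)+ RNA at single-nucleotide resolution with a crosslinked antibody, and RNA-seq libraries. RNA-seq counts were available for 3 wild-type (WT) and 3 Mettl3 knockout (KO) libraries of mouse embryonic stem cells (mESC), both lines taken from earlier work and grown with serum and LIF. The study calls its mESC miCLIP2 replicates biological and describes the RNA-seq as made from the same samples; how the cultures were separated is not given in the sources used here, and the p-values measure the spread between these libraries. m6A sites were listed for WT mESC (4 libraries, 1 of the replicates being represented by a technical pair), for HEK293T cells, a human embryonic kidney line (4 libraries), and for purchased mouse heart RNA at 1000, 300, 100 and 50 ng (1 library each). Each list holds 1 entry per site for all libraries together, so that site counts have no replicate spread and the depth behind a site is unknown. All listed sites are predictions of the study's m6Aboost model. The miCLIP2 libraries of Mettl3 KO mESC were not analysed here.

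SR proteins carry RNA recognition motifs and a domain rich in arginine and serine, and they bind exonic enhancers to guide the choice of splice sites. Many of their genes control their own output through ultraconserved poison exons, whose inclusion brings in a premature stop codon and sends the transcript to nonsense-mediated decay (NMD). m6A is written co-transcriptionally by the METTL3-METTL14 complex, mostly at DRACH motifs in long exons and near stop codons, and it is read in the nucleus by YTHDC1, which is known to interact with SR proteins.

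The 13 windows below carry the comparisons that follow. Each has 21 bases of the transcript strand, with the pentamer centred on the A of the listed site in capitals. They are the best-scoring mESC site of each gene with a site, the site in a poison exon, the sites found in mESC and heart that also had a HEK293T site with at least 18 of 21 equal bases, and the HEK293T counterparts. The human SRSF11 window, with fewer equal bases, was added for its position in the last sense codon. Mouse positions are on GRCm38 and human positions on GRCh38.
Srsf2, 3′UTR, chr11:116850924-116850944, minus strand: ttaacagaGGACAttggggga
Srsf3, coding exon 3, chr17:29038510-29038530, plus strand: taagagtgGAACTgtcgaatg
Srsf5, first base after the stop codon, chr12:80949969-80949989, plus strand: tggcaattAAACTgtaaataa
SRSF5, first base after the stop codon, chr14:69771452-69771472, plus strand: tggcaattAAACTgtaaataa
Srsf5, 3′UTR, chr12:80949979-80949999, plus strand: actgtaaaTAACTtgccctgg
SRSF5, 3′UTR, chr14:69771462-69771482, plus strand: actgtaaaTAACTtgccctgg
Srsf6, coding part of exon 6, chr2:162934578-162934598, plus strand: cccaaagaGAACGgcaaagga
Srsf7, coding exon 2, chr17:80205932-80205952, minus strand: gcccttaaGAACTgtgtggat
SRSF7, coding exon 2, chr2:38750098-38750118, minus strand: tcctttaaGAACTgtatggat
Srsf7, poison exon, chr17:80204649-80204669, minus strand: ctactactAGACCatgggcca
Srsf11, last sense codon, chr3:158012003-158012023, minus strand: gatatgagTGACTgagcccaa
SRSF11, last sense codon, chr1:70250791-70250811, plus strand: gatatgagTGACTgaatattg
Tra2a, 3′UTR, chr6:49244687-49244707, minus strand: gtgcccgaGGACTttgctttt

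In WT mESC, 16 of the 25456 listed sites lay in 7 of the 10 genes: 4 in Srsf2, 4 in Srsf5, 3 in Srsf11, 2 in Srsf7 and 1 each in Srsf3, Srsf6 and Tra2a. No site was listed in Srsf1, Srsf10 or Tra2b. An exon site was listed for 42.0% of the 15731 genes tested by RNA-seq, and for 81.1% of the 1265 genes at or above the WT level of Tra2b, the lowest of the 9 tested SR genes in read counts scaled to library size (143.8 CPM). The 7 SR genes with a site therefore stood near the share of genes at such levels. All 16 sites were in an exon of an annotated transcript, with retained-intron transcripts counted as exons. By this measure 0 of the 10 genes held an intron site, beside 1.01% of tested genes.

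Along the longest coding transcript of each gene, 1 mESC site was in a 5′UTR, 5 were in coding sequence and 8 in 3′UTRs, and 11 of these 14 were in the last exon. The other 2 lay outside that transcript, 1 in the last intron of Srsf2, exonic only in an annotated retained-intron transcript, and 1 in the poison exon of Srsf7. The motif was DRACH at 14 of 16 sites (87.5%, 95% Wilson interval 64 to 96.5%, counting error only), against 92.9% of the whole list. The 2 other pentamers were GAACG in Srsf6 and GGATT in Srsf11.

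**Figure D1:**
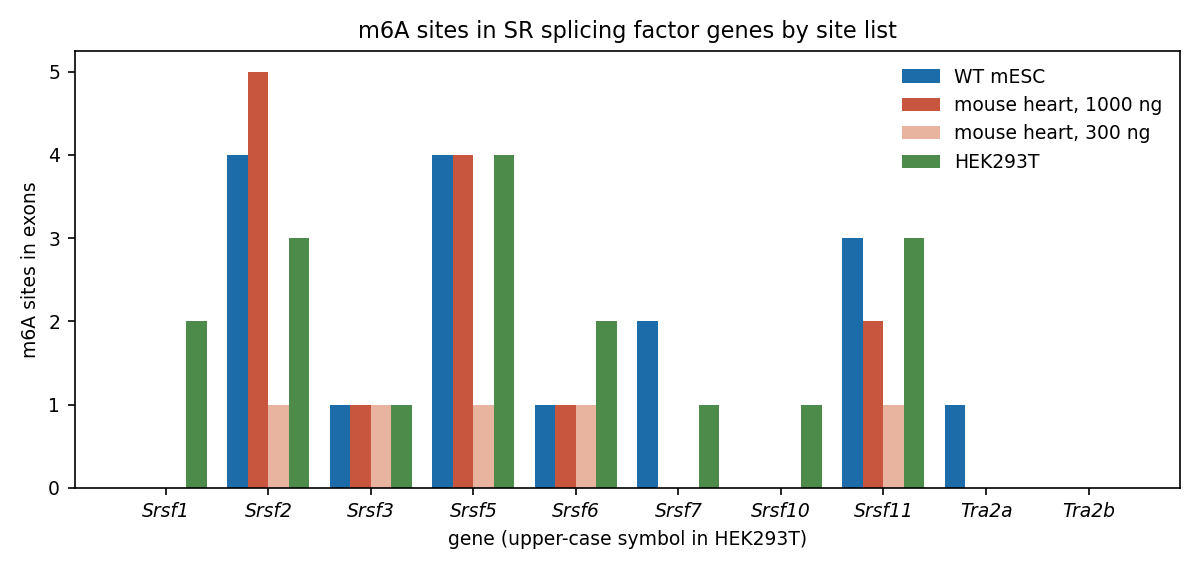
Number of m6A sites in exons (bars) for each SR gene in the lists from WT mESC, mouse heart at 1000 and 300 ng, and HEK293T. Srsf2 and Srsf5 hold 4 or 5 sites in mESC and in heart at 1000 ng, whereas Tra2b holds none in any list.

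Srsf5, an SR protein that responds to insulin signalling and growth, carried the tightest cluster. Its 4 mESC sites lay 13 bases before the last base of the stop codon and 1, 11 and 39 bases after it, all in the last exon. The m6Aboost scores, which run from 0.5 to 1, were 0.540, 0.942, 0.784 and 0.581 in this order, and the score of 0.942 directly behind the stop codon was the highest of all 16 sites. All 4 positions were also listed in heart RNA at 1000 ng. Human SRSF5 was listed at 4 sites, at 1, 11, 39 and 45 bases after the stop codon. The first 2 of these had windows equal to the mouse ones at 21 of 21 bases, and the third at 17 of 21.

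Srsf11, an SR-like protein that associates with the factors that recognise the 3′ splice site, was listed at 3 sites in mESC. The best of them, with a score of 0.899, was the middle base of the last sense codon, GAC for Asp, 4 bases before the last base of the stop codon. The others were 240 and 269 bases into the 3′UTR, with scores of 0.737 and 0.506. The sites in the last codon and at 240 bases were also listed in heart. Human SRSF11 was likewise listed in its last sense codon, again the middle base of GAC for Asp, with a score of 0.667, although its window was equal at 15 of 21 bases and so did not count as a match. This pair was singled out after its position had been seen. The 2 other human sites were in codons for Thr in the first exon of the transcript.

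Srsf2, which binds exonic enhancers and shapes its own mRNA through splicing of its 3′UTR, had 4 mESC sites, 5 heart sites and 3 human sites. In mESC 1 lay in the 5′UTR (score 0.814), 2 in the 3′UTR at 35 and 57 bases after the stop codon (0.817 and 0.717) and 1 in intron 2 of 2, which is exonic only in retained-intron transcripts (0.679). Heart shared the 5′UTR site, the site at 35 bases and the intron site, and added a second position in the same intron and another at 910 bases after the stop codon. None of the windows matched those of human SRSF2, where 2 sites lay in codons for Asp of the first exon and 1 at 1895 bases after the stop codon.

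Srsf7, a shuttling SR protein with a zinc knuckle that also serves in mRNA export, had the only site of these genes in a poison exon. Among the mouse genes, 10 cassette exons of 70 to 460 nt in 7 genes occurred in NMD transcripts and touched no exon of the longest coding transcript. Of these, 1 held a listed site in mESC and 0 held any in heart, and of 12 such exons in 7 human genes (62 to 456 nt) 0 held a site in HEK293T. The Srsf7 site was base 423 of the 460-nt exon that follows exon 3, and 37 bases before its end. Its score of 0.556 was below the median of the list, 0.745, and the position is also exonic in a retained-intron transcript, so that poison exon inclusion and intron retention cannot be told apart as its source. The second Srsf7 site, with a score of 0.620, was the first base of codon 39 for Thr in exon 2, 86 bases from the nearest junction. Human SRSF7 was listed at the same codon and distance, with a score of 0.684 and 18 of 21 equal bases. Neither Srsf7 site was listed in heart.

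The remaining genes had at most 1 mouse site per list. Srsf3 is the smallest SR protein and an adaptor for mRNA export and 3′ end choice. It was listed in mESC (score 0.806) and in heart at the same base of codon 79 for Glu. That base lay 30 bases from a junction of the 135-nt exon 3. The human site of SRSF3 was elsewhere, in codon 34 for Gly of exon 2. Srsf6, an SR protein that binds exonic enhancers, had its mESC site in codon 284 for Asn (score 0.624) and its heart site 36 bases after the stop codon, where SRSF6 was listed in HEK293T at 33 and 71 bases. Tra2a, which binds GAA-rich enhancers, was listed in mESC alone, 24 bases after the stop codon (score 0.759). Its paralogue Tra2b had 0 sites in every list, and Srsf10, a splicing repressor when dephosphorylated, was listed only in human cells, 3493 bases after the stop codon.

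**Figure D2:**
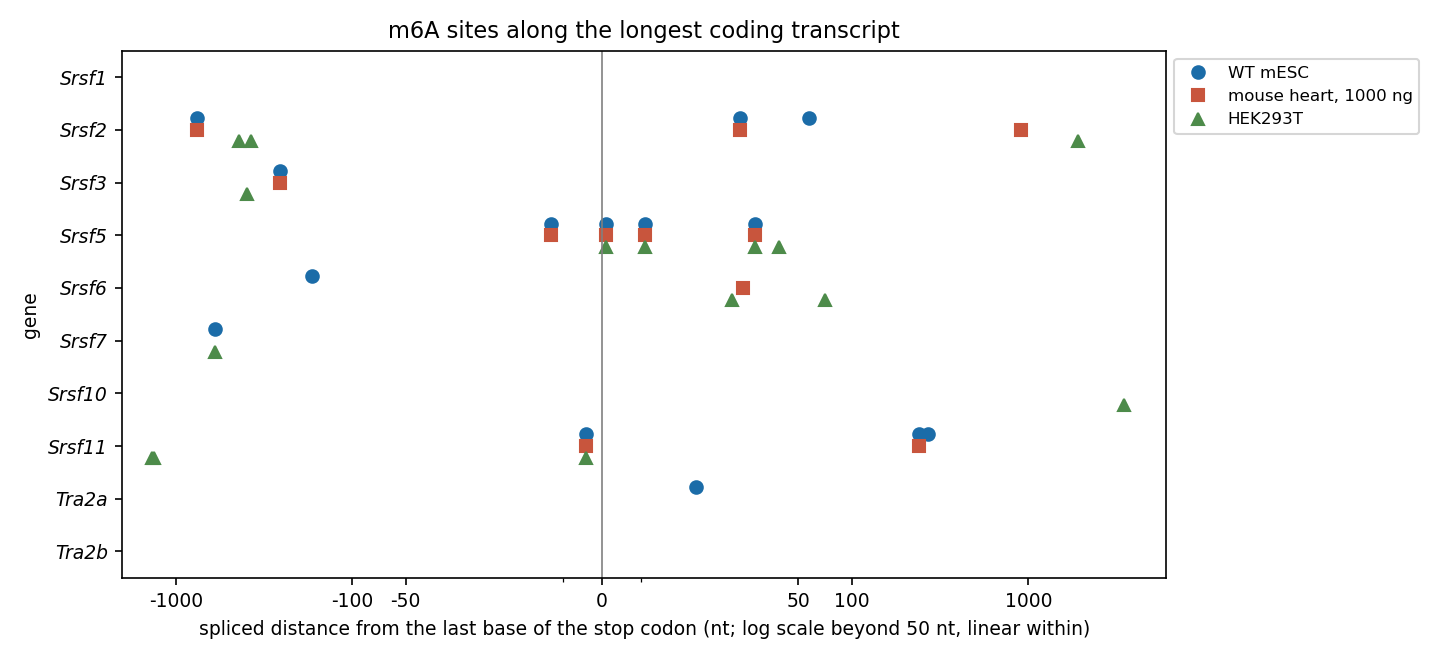
Spliced distance of each m6A site from the last base of the stop codon (horizontal axis, nt, logarithmic beyond 50 nt and linear within) for each SR gene in WT mESC (circles), mouse heart at 1000 ng (squares) and HEK293T (triangles). Sites at 1, 11 and 39 nt in Srsf5 and at -4 nt in Srsf11 appear in all of these lists, whatever the likeness of their windows; the sites outside the longest coding transcript are not drawn.

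Heart RNA at 1000 ng listed 13 sites in 5 of the genes, all in exons and all at DRACH motifs. Of these, 10 were at the same position as a mESC site, which is 62.5% of the 16 mESC sites and 76.9% of the 13 heart sites. Over the whole lists the shared positions made up 59.6% of the mESC list and 32.7% of the heart list. The whole lists were not matched to the SR genes in expression, and the heart list includes genes without any mESC site. The study kept peaks present in more than 1 replicate of a condition, which 1 heart library per input cannot meet. How the heart peaks were filtered is not given in the sources used here, so the lists may differ in stringency. At 300 ng 5 of the sites were listed, 1 each in Srsf2, Srsf3, Srsf5, Srsf6 and Srsf11, and all 5 were among the 13. The lists at 100 and 50 ng, with 1112 and 248 sites in all, held 0. Of the heart genes, Ttn (195 sites), Ryr2 (23), Tnnt2 (2) and Myh6 (1) were listed in heart at 1000 ng and had 0 sites in mESC, whereas Myh7 and Actc1 had 0 in both.

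HEK293T cells listed 17 sites in 8 of the 10 human genes, 7 in coding sequence and 8 in 3′UTRs, with 14 of 17 at DRACH (82.4%, Wilson interval 59 to 93.8%). TRA2A and TRA2B had none. The 2 sites of SRSF1, the founding SR protein, lay beyond the last exon of its longest coding transcript, in longer 3′ ends that also fall within an exon of another gene on the same strand. In total 3 of the 16 mESC sites had a matching human window: 2 in Srsf5 and 1 in Srsf7.

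RNA-seq addressed how the genes changed without Mettl3. Gene counts per library were 22746733 to 27254245. Mettl3 itself was counted at 560, 698 and 612 reads in WT and at 462, 669 and 457 in KO, a log2 fold change of -0.50 ± 0.14 (SE; edgeR adjusted p = 0.0134), so gene counts do not show the deletion. Summed mESC markers reached 2264 to 2507 CPM in WT and 2382 to 2468 in KO. Fibroblast markers reached 10.77 to 15.43 and 13.78 to 14.92, a sum that hides opposite changes. Thy1 was higher in KO (log2 fold change 1.19, edgeR adjusted p = 0.00206) and Pdgfrb lower (-0.885, 0.00491). Endoderm and mesoderm markers reached 4.348 to 7.457 and 2.587 to 3.139, with Gata4 lower (-1.59, 0.00206). The heart list stood at 40.78 to 93 CPM in WT and 179.5 to 220 in KO, mainly Ttn, with Actc1 at 0. The Y-linked Eif2s3y was at 0 reads in each WT library and at 1458 to 1791 in KO, so the lines differ in more than Mettl3, and line and genotype cannot be told apart. The part of any of these in the results below was not tested.

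Per exon length, in reads scaled to exon length and library size (RPKM), WT levels ran from Srsf2 (81.4 ± 11.3, SD, n = 3) over Srsf7 (71.0 ± 8.41), Srsf5 (56.3 ± 16.3), Tra2a (51.4 ± 8.92), Srsf6 (42.5 ± 3.93), Srsf3 (29.6 ± 4.97), Srsf11 (26.3 ± 0.959) and Srsf10 (22.7 ± 2.04) down to Tra2b (15.6 ± 1.26). The ranges of neighbours in this order overlapped from Srsf2 to Srsf6 and between Srsf3 and Srsf11, but not between Srsf6 and Srsf3, between Srsf11 and Srsf10, or between Srsf10 and Tra2b. The order and these gaps depend on the length used, the union of all annotated exons, retained-intron transcripts included. For Tra2a this union is 6945 nt, against 1799 nt in its longest coding transcript. An order by other lengths was not computed. Srsf1 was listed at 0 reads in all 6 libraries. It is a gene that dividing cells use, the reason for the 0 was not tested, and it was left out of the fits. The other 9 passed the filter on low counts, and each exceeded at least 92% of the tested genes in WT level.

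**Figure D3:**
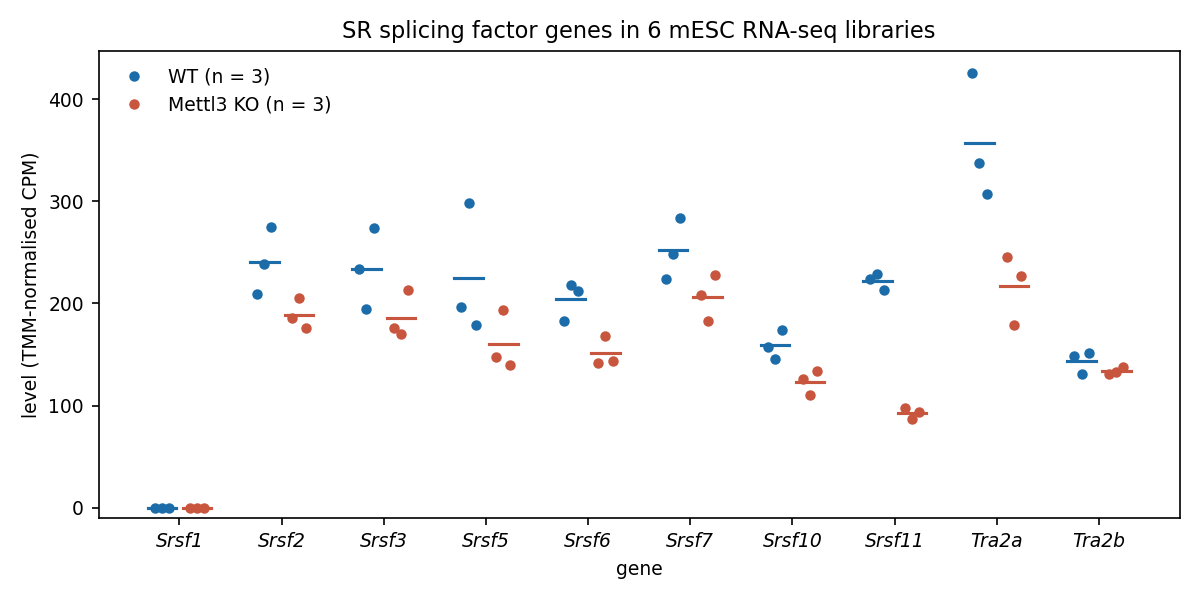
TMM-normalised level (CPM, vertical axis) of each SR gene in the 3 WT and 3 Mettl3 KO libraries (points), with group means (bars). The KO points of Srsf11 sit at 87.22 to 97.31 CPM, below its WT points at 212.8 to 228.6, and Srsf1 is at 0 throughout.

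Of the 9 tested genes, 2 were called lower in KO at an adjusted p of at most 0.01, Srsf11 and Tra2a, and 0 were called higher by edgeR or DESeq2. At an unadjusted p under 0.05 the edgeR fit had 8 lower and 0 higher, against 26.1% of all genes lower at that threshold. At the adjusted threshold, among all 15731 genes, 29.7% were called, 17.1% higher and 12.6% lower. With library-size scaling in place of TMM the split of all calls moved from 2687 higher and 1982 lower to 2937 and 1199, and the median of all genes from -0.02 to 0.09. Every one of the 9 fitted log2 fold changes was negative, with a median of -0.36, except that Tra2b turned to 0.007 under library-size scaling. The share of negative changes among all genes was not computed. Ranges did not overlap for 5 of 9 (Srsf2, Srsf6, Srsf10, Srsf11 and Tra2a, all lower), near the 56.1% of all genes in either direction. The share of all genes that were lower without overlap was not computed. The summed level of the 9 genes was 2002 to 2069 CPM in WT and 1430 to 1492 in KO. In such bulk samples, fewer cells of a type and less RNA per cell cannot be told apart. Gene counts do not separate coding isoforms from poison-exon or retained-intron isoforms. The paper reports broadly reduced intron retention in these KO cells, and its part in the lower counts was not tested. Srsf11, for example, has 11 annotated retained-intron transcripts.

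Same-numbered WT and KO libraries deviated together for replicates 2 and 3. For replicate 1 the correlation, 0.122, was close to the 0.11 of WT replicate 3 with KO replicate 1. With the replicate number as a block, 6 of the 9 genes were called, all lower, against 43.5% of all genes called and 20.0% called lower. The additional calls were Srsf3, Srsf5, Srsf6 and Srsf10.

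Srsf11 had the largest fitted change of the 9. It was counted at 4740, 6003 and 4503 reads in WT and at 2445, 2584 and 2531 in KO, which is 221.7 ± 8.1 and 92.7 ± 5.1 normalised CPM (SD, n = 3). Every KO library was below every WT library. The log2 fold change was -1.26 ± 0.10 (SE), a ratio of 0.418, with an edgeR adjusted p of 1.54e-05. The call was kept in each of the 13 alternatives. An annotated gene, Gm43362, overlaps Srsf11 on the same strand, and reads in the overlap may be missing from the count.

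Tra2a was counted at 9029, 8872 and 6492 reads in WT and at 6174, 5309 and 6139 in KO. The normalised levels were 356.9 ± 62.0 and 217.2 ± 34.3 CPM (SD, n = 3), and the groups did not overlap. Its log2 fold change was -0.72 ± 0.16 (SE; edgeR adjusted p = 0.00407). The call was lost without WT replicate 1 (edgeR adjusted p = 0.0215), KO replicate 2 (0.0169) or KO replicate 3 (0.0139). Its paralogue Tra2b, at 3157, 3428 and 3215 reads in WT and 3295, 3933 and 3730 in KO, had a log2 fold change of -0.10 with a 95% interval of -0.33 to 0.12, and its groups overlapped.

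Srsf6 narrowly missed the threshold. Its normalised levels were 182.9, 218.2 and 212.4 CPM in WT and 141.4, 168.5 and 143.7 in KO, without overlap, and the log2 fold change was -0.44 ± 0.12 (SE; edgeR adjusted p = 0.0119, and 0.000954 with the block). Srsf10 was at 156.9, 145.8 and 174.1 CPM in WT and 125.9, 110.6 and 134.1 in KO. Its log2 fold change of -0.36 ± 0.12 had an edgeR adjusted p of 0.0254, and of 0.00318 with the block. Both genes were lower in every KO library than in any WT library.

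Srsf5 and Srsf3 were called only with the block or, for Srsf5, without the filter on low counts. Srsf5 was at 196.5, 298.7 and 178.6 CPM in WT and at 147.9, 193.9 and 139.6 in KO, with replicate 2 the highest of either group, so the ranges overlapped. The log2 fold change was -0.49 ± 0.20 without the block (edgeR adjusted p = 0.0645) and -0.46 ± 0.10 with it (0.000669). Srsf3 was at 233.8, 195.0 and 273.6 CPM in WT and 175.7, 169.6 and 213.0 in KO, again overlapping. Its log2 fold change was -0.33 in both fits, with an edgeR adjusted p of 0.0827 without the block and 0.0085 with it.

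Srsf2 and Srsf7 passed in neither fit. Srsf2 was at 208.8, 238.3 and 275.2 CPM in WT and 185.8, 205.5 and 175.8 in KO, and its log2 fold change was -0.35 with a 95% interval of -0.63 to -0.07 (edgeR adjusted p = 0.042, and 0.0118 with the block). Srsf7 was at 224.1, 248.9 and 283.6 CPM in WT and 208.7, 183.2 and 227.9 in KO, with a log2 fold change of -0.29 and an interval of -0.57 to -0.01 (0.0851, and 0.0215 with the block).

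**Figure D4:**
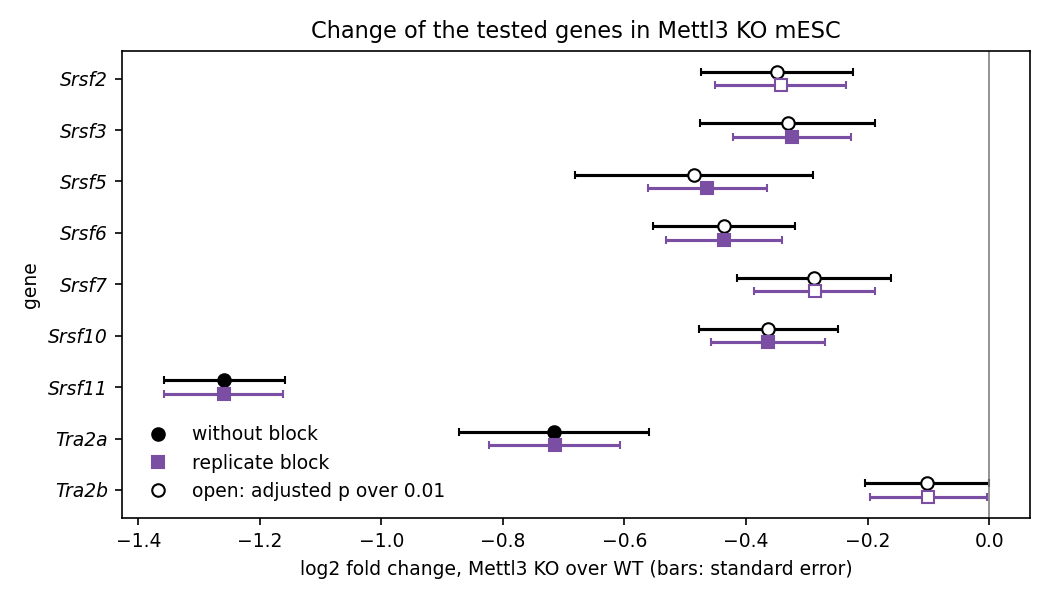
Log2 fold change of Mettl3 KO over WT (horizontal axis, with standard error) of the 9 tested SR genes, without a block (circles) and with the replicate number as a block (squares), filled where the adjusted p is at most 0.01. Srsf11 stands at -1.26 and Tra2a at -0.72, and Tra2b lies nearest to 0.

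Set beside the sites, the change did not follow the number of sites in order. Srsf11 had 3 mESC sites and a log2 fold change of -1.26, and Tra2a had 1 site and -0.72. Srsf2 and Srsf5 had 4 sites each, with -0.35 and -0.49, and Srsf10, without a mESC site, had -0.36. Tra2b, also without a site, had -0.10. Srsf7 had 2 sites and -0.29, and Srsf3 and Srsf6 had 1 site each, with -0.33 and -0.44. Without the block only the changes of Srsf11 and Tra2a were called.

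Among genes that act on or with SR proteins, the shares called are to be read against the 29.7% of all genes called, 17.1% higher and 12.6% lower. Of 19 other SR and SR-related genes 3 were called, all lower, with a median of -0.30. The lowest were Luc7l2, a U1 snRNP-associated protein (-0.95, edgeR adjusted p = 0.000958), and Rnps1, which links splicing to the exon junction complex (-0.90, 8.18e-05). Of 9 SR kinases and importers 1 was higher, the kinase Dyrk1a (0.77, 0.000351), and 2 were lower, the kinase Clk3 (-0.80, 0.000608) and Tnpo3, which carries SR proteins into the nucleus (-0.60, 0.00104). Of 14 NMD and exon junction genes 1 was higher, Smg8 (0.81, 0.000379), and 2 were lower, the NMD helicase Upf1 (-0.66, 0.00115) and Upf3b (-0.40, 0.00819). The nuclear m6A reader Ythdc1 rose by 0.84 ± 0.14 (SE; edgeR adjusted p = 0.000862), from 117.4 ± 22.2 to 209.9 ± 2.4 CPM. In mESC 14 of the 19, 7 of the 9 and 12 of the 14 genes of these lists held an exon site, up to 22 in Son, beside 42.0% of all tested genes and 81.1% of those at or above the level of Tra2b.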

How the data were processed

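The authors deposited whole-number gene counts per library. They mapped single-end RNA-seq reads to GRCm38 with STAR 2.6.1b and counted them on the reverse strand with HTSeq 0.12.4. For the m6A site lists the authors removed duplicates with UMI-tools, called peaks with PureCLIP and applied m6Aboost, whose score was deposited for mESC and HEK293T. The heart lists were deposited by the authors with a score of unstated scale, not used here. Their transcript models were filtered by support level, so a gene without a site may lack a retained model.

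Lines naming no gene were left out (reads in no feature, 17.6 to 22.6%). edgeR 4.0.16 (filterByExpr, TMM, quasi-likelihood test, Benjamini-Hochberg over all genes tested, called at 0.01) compared 3 KO with 3 WT libraries. Same-numbered libraries correlated in their deviations from group means at r = 0.122, 0.464 and 0.303. WT replicate 3 with KO replicate 1 had 0.11, and the other differently numbered pairs were negative. A pairing by number stood out for replicates 2 and 3 but not for replicate 1, and it rests on these correlations alone. The fit was tested on simulated counts, and the pass requirement was restricted to expressed genes after a first one over all genes was not met. DESeq2 1.42.0 was an alternative. RPKM used the union of annotated exons. Sites were placed with GENCODE M21 (mouse) and v44 (human), other releases than the authors used, and every checked site was an A. A human match needed 18 of 21 equal bases without gaps. The members and gene lists were chosen with earlier results of these data known. The text names all 10 members, Mettl3 and Ythdc1, and of each other list up to 2 called genes at either end of the fold changes; Son, Eif2s3y and Ttn were chosen after their values were seen. Sample titles give the smaller heart inputs in µg, file names in ng, which was used.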

Additional observations from a re-analysis of the deposited data

How the results depend on the processing

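Of 117 results for single genes (13 alternatives for 9 genes), 103 kept direction and call. The alternative at an adjusted p of 0.05 used the main fit with another threshold. For the 7 genes not called in the main fit, keeping the call means staying uncalled. Srsf11 kept its call in all 13 (log2 fold change -1.29 to -1.16) and Srsf7 remained uncalled. Tra2b turned to 0.007 with library size only. The number of called SR genes, all lower, was 2, and became 4 with no filter beyond 1 count, 5 at an adjusted p of 0.05 and 6 with the replicate block, while leaving out single libraries gave 1 to 2. The block changed the calls of Srsf3, Srsf5, Srsf6 and Srsf10 and no other. DESeq2 added Srsf6 (adjusted p = 0.00445). Calls over all genes went from 4669 to 7336 at 0.05 and to 2761 to 5412 without single libraries. Requiring a score of at least the list median left 7 of 16 mESC exon sites, 0 of 1 poison exon sites and 7 of 17 HEK293T exon sites. Counting sites outside the longest coding transcript gave 2 in place of 0 intron sites. Using 300 ng of heart RNA gave 5 in place of 13 sites, of which 4 in place of 10 were shared with mESC. The cause of these differences was not tested beyond the smaller number of sites that each choice keeps. Site lists give no depth, so a gene without a site may be unmethylated or too thinly covered.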
